A study of Drosophila melanogaster with 2 samples.

Results

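The peaks described here were 451 sites of ChIP-seq signal that lay inside introns of Drosophila melanogaster genes, neither at a promoter nor far from one. A peak was included when its summit lay inside an annotated gene but in no annotated exon, over 2 kb and at most 5 kb from the nearest transcription start site (TSS) of any gene. They were 8.95% (95% Wilson interval 8.19 to 9.77) of the 5038 peaks that the authors kept after thresholding by the irreproducible discovery rate (IDR), a measure of how well replicate peak rankings match. The rule used position alone and no peak height.

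Chromatin immunoprecipitation and sequencing (ChIP-seq) was done on whole embryos aged 10 to 24 h from a transgenic line that stably expressed the CG9817 protein, now annotated as CG43347, with green fluorescent protein (GFP) at its C-terminus. The antibody was against GFP, and chromatin was sonicated to 200 to 800 bp. There were 2 biological replicates, numbered 1 and 3, in 1 group, both from the same tagged line, and untagged embryos were not analysed here. Whole embryos mix all tissues, so a peak present in few cells cannot be told apart from a weak peak present in many. The deposited lists give peaks and not reads, so the read depth of each replicate is unknown.

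Introns of developmental genes in Drosophila often hold enhancers, short sequences where transcription factors bind and raise or lower transcription from a promoter some distance away. Introns can also hold alternative promoters, which is why distance was taken to every annotated TSS and not to the first one of the host gene. Sequence at such sites can carry short words that DNA-binding proteins recognise. The 201 bp around 10 summits are shown to let the base composition and the word described further on be seen directly. They are taken from the 369 members on the arms from which sequence is printed, whose median signal was 236, and are named by host gene. They belong to the 6 strongest of these, the 2 nearest that median and the 2 weakest. Tlk lay at chrX:3742122-3742322, Raf at chrX:2297636-2297836, trx at chr3R:14283785-14283985, mnb at chrX:17880342-17880542, Kdm2 at chr3R:9057453-9057653 and CHES-1-like at chrX:7700310-7700510. The members nearest the median were in CG13101 at chr2L:8982622-8982822 and Pvf1 at chrX:18837091-18837291, and the weakest in HDAC4 at chrX:13277621-13277821 and osp at chr2L:14619763-14619963. All are plus-strand sequence of the release 6 assembly (dm6), intronic by the annotation, and capitals mark the word CACTG or its reverse complement.
Tlk: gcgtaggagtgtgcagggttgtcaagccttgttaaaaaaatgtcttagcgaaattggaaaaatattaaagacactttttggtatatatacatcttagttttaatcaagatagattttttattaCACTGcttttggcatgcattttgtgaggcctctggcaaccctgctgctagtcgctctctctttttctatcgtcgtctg
Raf: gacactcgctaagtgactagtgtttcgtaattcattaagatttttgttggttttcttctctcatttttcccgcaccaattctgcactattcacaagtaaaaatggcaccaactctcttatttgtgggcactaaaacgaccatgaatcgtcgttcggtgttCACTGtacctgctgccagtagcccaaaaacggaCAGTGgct
trx: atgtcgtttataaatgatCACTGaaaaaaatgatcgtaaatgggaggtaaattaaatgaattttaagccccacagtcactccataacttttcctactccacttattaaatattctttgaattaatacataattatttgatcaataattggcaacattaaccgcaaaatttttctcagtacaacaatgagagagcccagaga
mnb: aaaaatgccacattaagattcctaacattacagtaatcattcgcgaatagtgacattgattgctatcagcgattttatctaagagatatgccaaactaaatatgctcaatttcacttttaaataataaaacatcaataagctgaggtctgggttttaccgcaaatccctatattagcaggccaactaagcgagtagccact
Kdm2: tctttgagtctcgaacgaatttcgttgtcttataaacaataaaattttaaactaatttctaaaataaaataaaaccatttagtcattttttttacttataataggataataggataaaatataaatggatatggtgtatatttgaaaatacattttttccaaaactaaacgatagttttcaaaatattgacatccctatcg
CHES-1-like: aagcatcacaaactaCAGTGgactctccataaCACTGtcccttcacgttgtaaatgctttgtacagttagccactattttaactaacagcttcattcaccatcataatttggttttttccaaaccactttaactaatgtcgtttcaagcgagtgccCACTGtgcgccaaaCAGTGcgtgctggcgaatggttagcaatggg
CG13101: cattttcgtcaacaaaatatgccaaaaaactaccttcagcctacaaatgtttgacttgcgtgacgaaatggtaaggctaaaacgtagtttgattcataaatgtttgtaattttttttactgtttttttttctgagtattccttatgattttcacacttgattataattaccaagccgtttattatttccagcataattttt
Pvf1: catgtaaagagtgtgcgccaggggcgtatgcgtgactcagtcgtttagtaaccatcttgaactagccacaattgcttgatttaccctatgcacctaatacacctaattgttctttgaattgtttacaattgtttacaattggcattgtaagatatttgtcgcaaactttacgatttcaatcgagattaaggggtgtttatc
HDAC4: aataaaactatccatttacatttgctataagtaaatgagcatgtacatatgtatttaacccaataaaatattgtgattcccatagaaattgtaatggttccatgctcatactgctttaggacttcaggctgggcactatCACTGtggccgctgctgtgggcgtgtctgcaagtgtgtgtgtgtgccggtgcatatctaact
osp: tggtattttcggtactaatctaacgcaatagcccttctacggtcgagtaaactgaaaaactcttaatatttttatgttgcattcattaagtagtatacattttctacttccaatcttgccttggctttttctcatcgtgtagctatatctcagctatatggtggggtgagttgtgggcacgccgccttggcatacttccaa
The CHES-1-like window held 4 copies of the word, the Raf window 2, and the Tlk, trx and HDAC4 windows 1 each, while the mnb, Kdm2, CG13101, Pvf1 and osp windows held none. GC content in these windows ran from 22.4% in Kdm2 to 42.8% in Raf and CHES-1-like. The word was therefore present in some strong and some weak members and missing from others of both kinds.

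The strongest member lay in Tlk, which encodes the Tousled-like kinase, on X. Its signal was 3232, and it ranked 21 in the IDR-thresholded list, 11 in replicate 1 and 39 in replicate 3. Signal is the authors' own value for a peak, with no unit stated, so ranks within each list (1 is the strongest) are given beside it. The second lay in CG12769 on 2R, with signal 2164 and ranks of 60 in the IDR-thresholded list, 60 in replicate 1 and 57 in replicate 3. Both peaks were thus near the top of every list.

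Genes for kinases and chromatin proteins hosted the next 4 peaks. In Raf, the kinase that links Ras to the MAP kinase cascade, the peak had signal 1699 and ranked 120 in replicate 1 and 95 in replicate 3. In trx, which encodes the Trithorax histone methyltransferase, it had signal 1639 and ranked 169 and 85. In mnb, a kinase gene of the DYRK family, signal was 1565 and the ranks were 108 and 145, and the nearest TSS there belonged to CG12985. Kdm2, a histone demethylase gene, held members 6 and 20 of the order, with signals of 1324 and 846; the first ranked 195 and 187, the second 666 and 321. The forkhead factor gene CHES-1-like followed with signal 1192 and ranks of 218 and 233.

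Further hosts among the 20 strongest were Pits, whose product interacts with the repressor Ttk69 and with Sin3A (signal 1175), Pak3, a p21-activated kinase gene (1139), and upSET, a SET domain gene (1071). Dys, which encodes dystrophin, had a peak of signal 1032, and Smr, which encodes the corepressor SMRTER, one of 1023. The remaining hosts were CG34417 (1016), mam, a Notch coactivator gene (996), atos (991), CG13894 (961), aos, the gene of a secreted inhibitor of the EGF receptor, together with the overlapping CG33158 (943), CG8745 (883) and CG9328 (868). The widest spread between replicates in these 20 was at CG9328, ranked 1010 in replicate 1 and 254 in replicate 3. Pak3 went the other way, with ranks of 121 and 391. All 20 were matched among the strongest 5038 peaks of both replicates, 7 lay on X, and 13 lay in a first intron of at least 1 transcript.

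**Figure D1:**
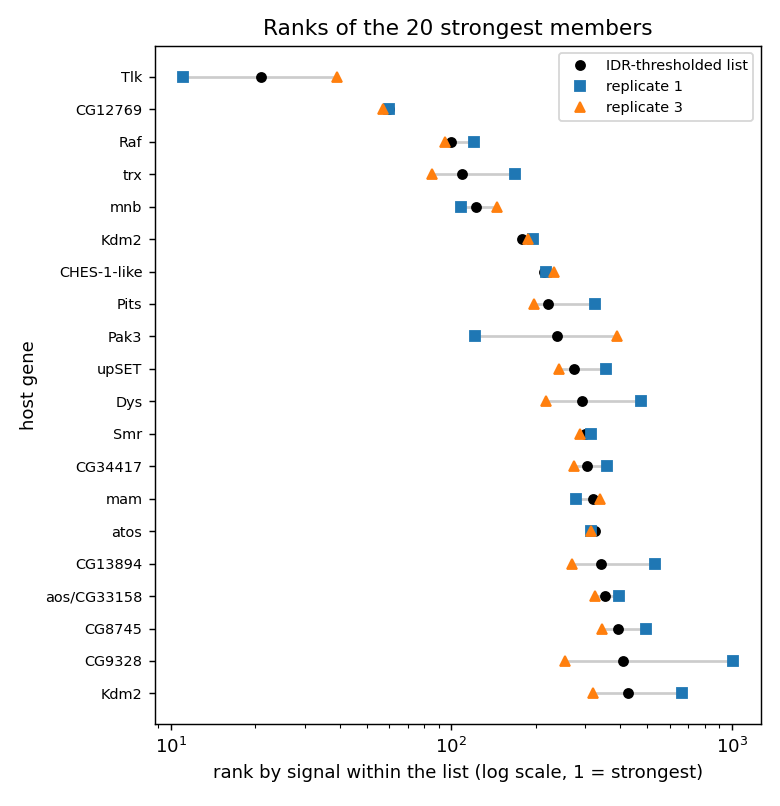
Ranks by signal (log scale, 1 is the strongest) of the 20 strongest members, 1 row per peak named by its host gene, in the IDR-thresholded list and in the list of each replicate. Tlk ranked 21, 11 and 39, and CG9328 shows the widest spread, 1010 in replicate 1 against 254 in replicate 3.

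Across all 451 members the signal ran from 129 to 3232 with a median of 230, against a median of 251 over all 5038 peaks. The median rank was 2772 in the IDR-thresholded list, and 3 members were among its strongest 100 and 24 among its strongest 500. Of the members with signals of 237 and 236 whose sequence is printed, the peak in CG13101 ranked 3222 in replicate 1 and 2540 in replicate 3, and that in Pvf1, a gene for a PDGF- and VEGF-related growth factor, 3077 and 2478. At the weak end, the peak in HDAC4, a histone deacetylase gene, ranked 8905 and 5491, and that in osp 7390 and 4687. Peaks were 88 to 398 bp wide, and 250 of 451 were exactly 350 bp wide with the summit at the middle.

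The members lay in 340 genes, of which 330 were protein-coding. In 243 of them there was 1 member, in 69 there were 2, in 21 there were 3, and in 7 there were 4 or more. The gene with the most members was shn, a zinc finger gene of the Dpp pathway, with 6. Its strongest had signal 480 and ranked 1585 in replicate 1 and 833 in replicate 3, and its weakest had signal 136 and ranked 9596 and 3403. A pair of members in shn overlapped each other, and the same peaks overlapped both, ranked 1434 in replicate 1 and 1743 in replicate 3. The count of 6 may thus overstate the number of separate sites. CHES-1-like had 5 members, whose signals ran from 144 to 1192. CG1677 also had 5, all of them inside the long noncoding gene lncRNA:CR44357 as well, so the annotation cannot assign them to a single host. Tlk had 4, with signals of 3232, 378, 314 and 207, and so did RapGAP1, a gene for a GTPase activator of Rap1, and CG5151. Signals in RapGAP1 ran from 136 to 532 and in CG5151 from 150 to 395. Another member lay within 1 kb of 77 members (17.1%), so members are not independent sites throughout. The tagged gene CG43347 itself contained none.

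Intronic peaks became sparser with distance from a TSS. Members occurred at 34.4 per Mb of intronic sequence in the same distance range (exact Poisson interval 31.3 to 37.7, over 13.1 Mb). Intronic peaks over 500 bp and at most 2 kb from a TSS, called the nearer class below, numbered 759 at 66.4 per Mb (61.8 to 71.3). Those over 5 kb from a TSS, the farther class, numbered 497 at 17.6 per Mb (16.1 to 19.2). Within the members' own range the density was 38.1 per Mb (31.3 to 46.0) in the first 500 bp and 32.4 (24.4 to 42.3) in the last, intervals that overlap. The 5038 strongest peaks of each replicate gave lower densities in replicate 1 (33.9 and 27.0 per Mb in those bins) and higher ones in replicate 3 (41.7 and 35.4). Intervals cover counting over peaks and not variation between embryos.

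**Figure D2:**
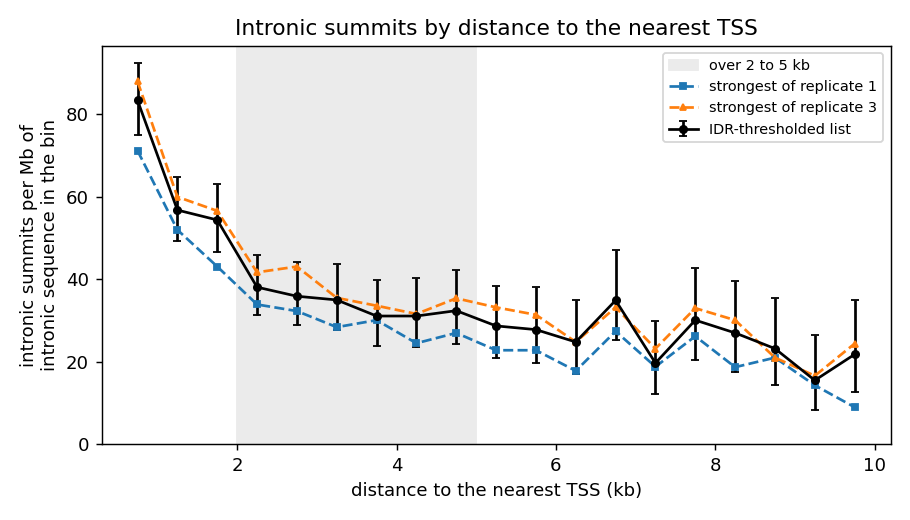
Intronic summits per Mb of intronic sequence against distance to the nearest TSS in 500 bp bins, for the IDR-thresholded list (points with exact Poisson 95% intervals) and the 5038 strongest peaks of each replicate (dashed). Density falls from 83.4 per Mb in the first bin to 38.1 where the members' range (grey) starts, and is 32.4 where it ends.

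By chromosome, X carried 122 members at 46.2 per Mb (38.4 to 55.2). The density was 36.4 (28.9 to 45.2) on 2R, 32.7 (26.2 to 40.3) on 3L, 29.9 (23.4 to 37.7) on 2L and 29.6 (23.7 to 36.5) on 3R. X was the highest of these, and its interval overlapped those of 2R and 3L. It was also the highest in the nearer class (78.6 per Mb) and in the farther class (25.7), so this was not particular to the members. Chromosome 4 had 0 members in 0.186 Mb, where the interval reaches 19.8 per Mb. No member summit lay in an annotated transposable element, while 5.79% of the eligible bases did; 0 of 451 allows a share of up to 0.665%, counting error only. The nearer and farther classes each had 1 such summit. Whether reads in repeats were kept is not given in the sources used here.

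The nearest TSS belonged to a host gene for 337 members (74.7%, 70.5 to 78.5), against 60.8% of the intronic bases that could have held a member. The summit lay downstream of the nearest TSS in 304 cases (67.4%), near the 66.3% of eligible bases that do. Where the nearest TSS was in a host gene, 250 of 337 summits lay downstream (74.2%, 69.3 to 78.6), below the 79.6% of such eligible bases. A first intron of at least 1 transcript contained 312 members (69.2%, 64.8 to 73.3), against 51.3% of eligible bases. For 114 members (25.3%) the nearest TSS belonged to another gene, as at Smr, where it was that of lncRNA:CR43963, and at mam, where it was that of CG18371. The shortest intron around each summit had a median length of 10196 bp. A rule on position favours long introns in itself, and no such length was computed for the eligible bases. At the limits of the range, the members in NFAT and Hnf4 lay 2001 and 2004 bp from a TSS with signals of 626 and 165, and peaks in CG9171 and lncRNA:CR44320 lay just outside at 1990 and 1998 bp with 401 and 390. At the upper limit the peaks in pb and tara lay inside at 4982 and 4996 bp with 139 and 294, and those in SLO2 and CG46339 outside at 5002 and 5007 bp with 225 and 227.

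Host genes were counted by role in 10 lists, which were chosen with earlier results of these data known. The count is given as a share of the listed genes that have intronic sequence in the distance range. Over all protein-coding genes that share was 330 of 4206 (7.85%), or 34.2 members per Mb. A gene with more sequence in range has more room for a member, so members per Mb is given beside each share. The direction differs between these measures for RNA-binding and axon guidance genes. They were above all protein-coding genes by share and below them by members per Mb. Ion channel genes were also below by members per Mb, while their share (8.33%, 2.32 to 25.8) was close to that of all protein-coding genes. Chromatin regulators and corepressors had 6 hosts of 25 (24.0%, 11.5 to 43.4) with 10 members at 146 per Mb. They were trx, Smr, Gug, tara, ph-p and Mi-2, the last sharing its peak with Su(Tpl). Beside trx and Smr described above, the strongest was Gug, the Atrophin corepressor gene, with signal 448, overlapped by peaks ranked 1292 in replicate 1 and 1189 in replicate 3. The overlap in replicate 1 fell short of 50% of the length of both peaks, the rule for a match used further on. The 10 members came from 0.0687 Mb, so this density rests on few peaks.

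Signalling genes had 9 hosts of 37 (24.3%) with 16 members at 72.9 per Mb, 6 of the members in shn, among them the overlapping pair. The glypican gene dlp had a peak of signal 511 that ranked 1007 in replicate 1 and 971 in replicate 3. The strongest peak in aop, which encodes an ETS repressor of the receptor tyrosine kinase pathway, had signal 457 and ranked 1450 and 1086. Egfr, the EGF receptor gene, and InR, the insulin receptor gene, were hosts too, with strongest signals of 132 and 161. By their strongest peak, the hosts of this list ranked from 960 to 4915.

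The lists of transcription factors ranged from 12.4 to 59.3 members per Mb. BTB and zinc finger regulators had 7 hosts of 24 (29.2%) at 59.3 members per Mb. Here ken had a peak of signal 593 (ranks 662 and 968 in replicates 1 and 3), ush, a cofactor of GATA factors, one of 533 (2028 and 592), and sr, a factor of tendon cells, one of 426 (992 and 1642). Nuclear receptor and ecdysone genes had 5 hosts of 16 (31.2%) at 49.1 per Mb, led by the receptor gene Hr4 with signal 711 (829 and 456), the cyclin-dependent kinase gene Eip63E with 635 (1340 and 565) and the receptor gene Hr3, together with the overlapping CG12912, with 371 (1366 and 1706). Homeodomain, Hox and Pax genes had 2 hosts of 28 (7.14%) at 12.4 per Mb, both Hox genes. The peak in Antp, which also lay in the overlapping CG46458, had signal 273 and was overlapped by peaks ranked 1734 in replicate 1 and 2997 in replicate 3, the latter by less than the matching rule asks. The peak in pb had signal 139 and ranks of 3364 and 6339.

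Muscle genes had 6 hosts of 19 (31.6%) at 55.0 per Mb. The strongest peak in kirre, which encodes a fusion protein of muscle founder cells, had signal 642 (ranks 970 and 553 in replicates 1 and 3). It also lay in CG32795, whose TSS was the nearest, 2552 bp upstream of the summit. The other member in kirre had signal 606 and kirre as its single host. The strongest peaks in mbc and Mef2 had signals of 278 and 241. Cytoskeletal genes had 4 hosts of 23 (17.4%) at 41.6 per Mb, namely mbc, which is on both lists, shot, a spectraplakin gene (signal 216), chic, the profilin gene (214), and RhoGAP71E (159). RNA-binding genes had 5 hosts of 23 (21.7%) at 26.4 per Mb. The peak in the splicing factor gene mbl had signal 479 and was overlapped by peaks ranked 1407 in replicate 1 and 973 in replicate 3, neither by as much as the matching rule asks. The strongest peaks in shep and bru2 had signals of 445 and 226.

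Axon guidance and neuronal surface genes had 6 hosts of 33 (18.2%) with 8 members at 24.7 per Mb. The peak in side, which encodes a surface protein that guides motor axons, had signal 838 and ranked 376 in replicate 1 and 466 in replicate 3. Sema1a, a semaphorin gene, followed with 278 and Nrg, the neuroglian gene, with 274. Ion channel and synaptic genes had 2 hosts of 24 (8.33%) with 2 members at 13.7 per Mb, the scaffold gene dlg1 with signal 263 and the potassium channel gene Shab with 170. No test was made between lists. Since the lists were chosen with earlier results of these data known, their shares carry no statement on enrichment.

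**Figure D3:**
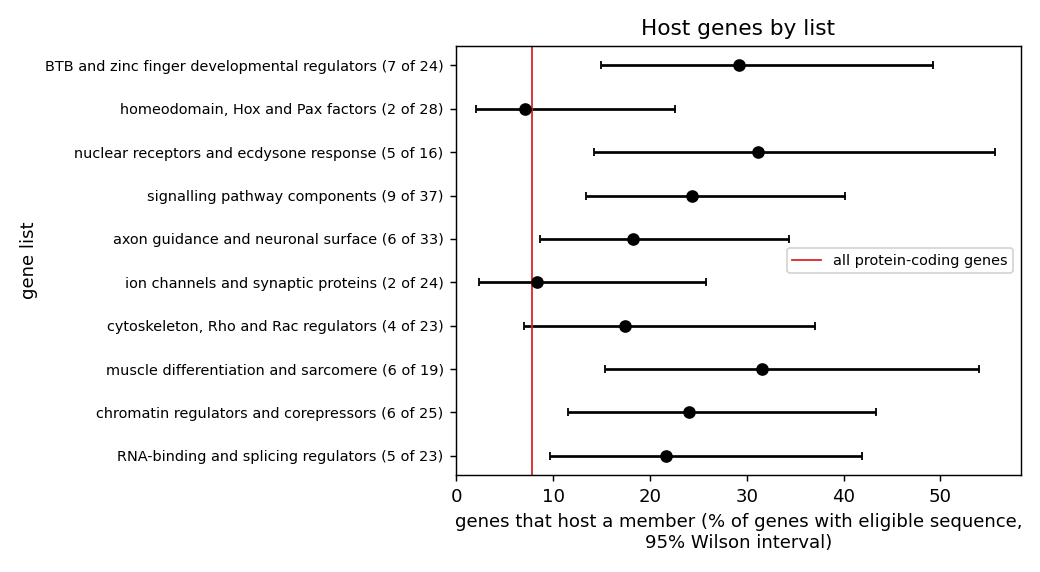
Genes with at least 1 member as a percent of the listed genes that have intronic sequence in the distance range (points, with 95% Wilson intervals and counts in brackets), for 10 gene lists and for all protein-coding genes (red line, 7.85%). Muscle and nuclear receptor genes stand at 31.6% and 31.2%, homeodomain genes at 7.14% and ion channel genes at 8.33%. Lists were chosen with earlier results of these data known. Shares are not adjusted for the amount of intronic sequence in range. RNA-binding and axon guidance genes lie above the line in share but below all protein-coding genes in members per Mb. Ion channel genes lie close to the line in share and are also below in members per Mb.

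Recovery in the replicates was close to that of all peaks. The IDR-thresholded list was derived from both replicates, so high recovery in them is partly built in and is no independent check. A member was called recovered when it shared at least 50% of its length reciprocally with a peak in the full list of 30000 of each replicate, and 359 of 451 (79.6%, 75.6 to 83.1) were, against 79.2% of all 5038 peaks. At an overlap of at least 1 bp the count was 447 (99.1%) against 98.4%. Among the strongest 5038 peaks of both replicates 240 members were matched (53.2%, 48.6 to 57.8), against 57.3% of all. Of the rest, at the 50% rule in the full lists, 26 were matched in replicate 1 alone, 46 in replicate 3 alone and 20 in neither. With the members split by signal into 3 groups of 113 and a last group of 112, recovery was 90.3%, 51.3%, 85.8% and 91.1% from the strongest to the weakest, and the median widths were 223, 167, 350 and 350 bp. The second group, with the narrowest peaks, was the lowest, and at an overlap of 1 bp its share was 100%.

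Most members ranked higher in replicate 3 than in replicate 1. Of the 359 found in both, 256 (71.3%, 66.4 to 75.7) did, with a median rank of 3468 in replicate 1 and 2730 in replicate 3. The share was 69.1% in the nearer class, 68.1% in the farther class, 37.9% for peaks within 500 bp of a TSS and 51.5% over all peaks found in both. All 3 intronic classes thus lay on the same side and the promoter class on the other. In the replicates' own strongest 5038 peaks, 392 (7.78%) of replicate 1 and 491 (9.75%) of replicate 3 met the positional rule.

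**Figure D4:**
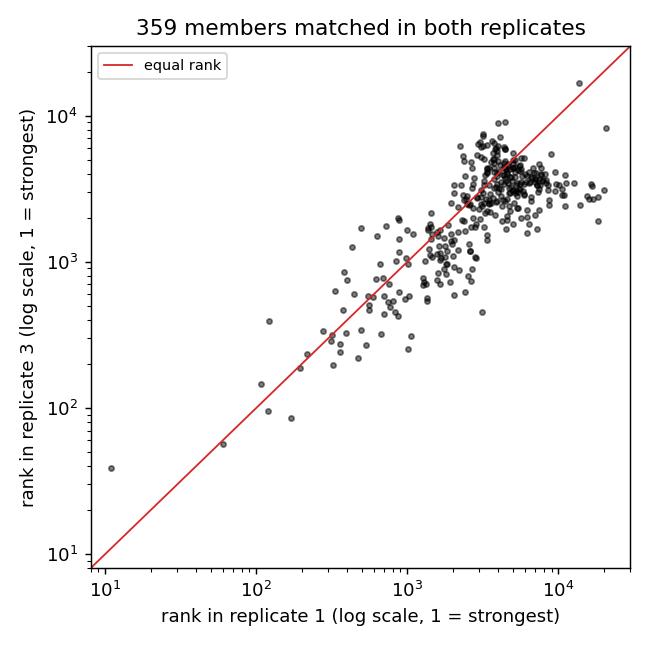
Rank by signal in replicate 1 against rank in replicate 3 (both log scale, 1 is the strongest) for the 359 members matched in both full lists, with the line of equal rank in red. Below the line lie 256 of the points, which ranked higher in replicate 3.

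The members were compared with the nearer and farther classes on 5 measures by two-sided Fisher's exact tests over peaks, with Benjamini-Hochberg adjustment over the 10 comparisons. A difference in whether the host gene also had a promoter peak passed the threshold over peaks, but not with 1 peak per host gene. Peaks in the same host gene share the outcome of this measure. The test over peaks counts such genes more than once, and its interval and p-value do not allow for that. Another IDR-thresholded summit lay within 500 bp of a host TSS for 217 members (48.1%, 43.5 to 52.7), against 35.0% in the farther class, a difference of 13.1 points (6.83 to 19.2, Fisher's exact test, adjusted p = 5.45e-04). It was 49.3% in the nearer class, and the difference of -1.16 points (-6.95 to 4.65) did not pass (exact test, adjusted p = 1.00). Among the 20 strongest members 9 had one, including CHES-1-like, Pits and Dys, and Tlk, Raf and trx had none. Over the replicates' own lists the difference from the farther class was 16.5 points in replicate 1 and 10.7 in replicate 3. With 1 peak per host gene it was 9.78 points (adjusted p = 0.124), and among the strongest 2519 peaks of the list 6.69 points (adjusted p = 0.508), so the call did not hold in either by Fisher's exact test.

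The other 4 measures gave no call. Among the strongest 1259 peaks of the list were 87 members (19.3%), against 22.7% of the nearer class (difference -3.37 points, -7.96 to 1.45, adjusted p = 0.424) and 13.9% of the farther class (5.41 points, 0.674 to 10.2, adjusted p = 0.0941, exact tests). The first of these passed in the peaks of replicate 1 alone (-7.06 points, adjusted p = 0.0217) and the second in those of replicate 3 alone (7.48 points, adjusted p = 0.00379, exact tests). The share among both replicates' strongest peaks was 7.34 points above the farther class (0.968 to 13.6, exact test, adjusted p = 0.0941) and -0.0129 points from the nearer class (-5.82 to 5.77). Recovery in both full lists differed by -0.636 points (-5.42 to 3.93) and 1.93 points (-3.31 to 7.12) from the nearer and farther classes. These measures of matching used the same replicates that gave the IDR-thresholded list, so they are not independent checks of reproducibility. These p-values count peaks of one pair of libraries and do not measure variation between embryos.

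The sequence at member summits was rich in A and T. Mean GC content in the 201 bp at the summit was 34.5% ± 6.35 (SD, n = 451 peaks), against 40.4% ± 6.19 in flanks of the same length centred 600 bp away, a difference of -5.96 points (95% interval over peaks -6.74 to -5.17). It was lower at the summit in 338 members (74.9%). All intronic sequence in the distance range, cut into 57875 windows of that length, had 40.0%. In 20 bp bins the lowest value around member summits was 31.7%, and 31.6% in both other intronic classes and 33.1% at promoter peaks. Members of the replicates' own lists reached 32.4% and 31.1%.

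Among motifs searched on both strands, GAGAG, the core of sites for the GAGA factor, was in 96 member windows (21.3%, 17.8 to 25.3), against 23.4% of flanks and 21.0% of intronic windows. The differences from the nearer and farther classes were -0.190 points (-4.86 to 4.69) and -1.85 points (-7.11 to 3.47), neither past the threshold (adjusted p = 1.00 and 0.886, Fisher's exact test). The promoter element DRE, TATCGATA, was in 1 member window (0.222%, 0.0392 to 1.25), while 7.81% of promoter peaks held it. Motif 1, GGTCACAC, was also in 1, against 3.66% of promoter peaks. The GATA factor word AGATAA was in 16.9% of member windows and 11.9% of flanks, and the homeodomain word TAATTA in 18.6% and 14.5%. In the nearer and farther classes AGATAA was in 17.5% and 14.3%, and TAATTA in 18.6% and 17.7%, so neither was particular to the members. Both words are rich in A and T, as were the member windows, and the part of base composition was not tested. The CA repeat CACACACA was in 3.99% of member windows against 8.31% of flanks, with 2.64% in the nearer and 3.82% in the farther class. These are matches of letters and carry no statement on binding.

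The 807 7-mers present in at least 5% of member windows were ranked by their ratio to the flanks. The first was CAGTGTA, in 45 member windows (9.98%) against 1.77% of flanks and 1.91% of intronic windows. The next was CACTGAG, in 37 (8.20%) against 1.55% and 1.84%. Of the first 10, 5 held the 5-base word CACTG on one strand, as did 7 of the first 20 and 13 of all 807. This word was then counted on its own, having been picked after these values were seen. It was in 213 member windows (47.2%, 42.7 to 51.8), against 27.7% of flanks and 27.5% of intronic windows, and 72 windows held at least 2 copies. The share was 48.4% in the nearer class, 54.1% in the farther class and 42.4% at promoter peaks, so the word was not particular to the members. One 7-mer of the first 10 with a lower share in the other classes was GTCAATA, in 6.43% of member windows, 3.03% in the nearer and 2.01% in the farther class, a difference that was not tested. It was ranked on these same member windows and then picked for this contrast, so lower shares elsewhere follow in part from the choice.

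The word sat beside the summit and not at it. At 60 to 119 bp from member summits it occurred 252 times, or 0.466 per 100 bp, against 0.183 at 300 to 599 bp, a ratio of 2.55 (2.24 to 2.88, Poisson interval of the nearer count). Within 39 bp of the summit it occurred 0.177 times per 100 bp, about the level far away. The word was picked on these same members against flanks centred 600 bp away. A higher density near the summit than far from it follows in part from that choice, which the interval does not cover. The ratio was 2.55 in replicate 1's own list and 2.57 in replicate 3's. These lists are not independent of the members, which 74.0% and 75.4% of their peaks in this class matched. In the nearer class the ratio was 2.39, in the farther class 3.35 and at promoter peaks 1.63. In the strongest 225 members the density at 60 to 119 bp was 0.563 per 100 bp and in the other 226 it was 0.369. The word was on both sides of the summit in 45 members (9.98%), 14.2% of the strongest 225 and 5.75% of the rest. The CHES-1-like window printed above shows that arrangement, with 2 copies on each side, while Tlk has its 1 copy 25 bp from the summit. GC content rose over the same distances, and its part in the position of the word was not tested.

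**Figure D5:**
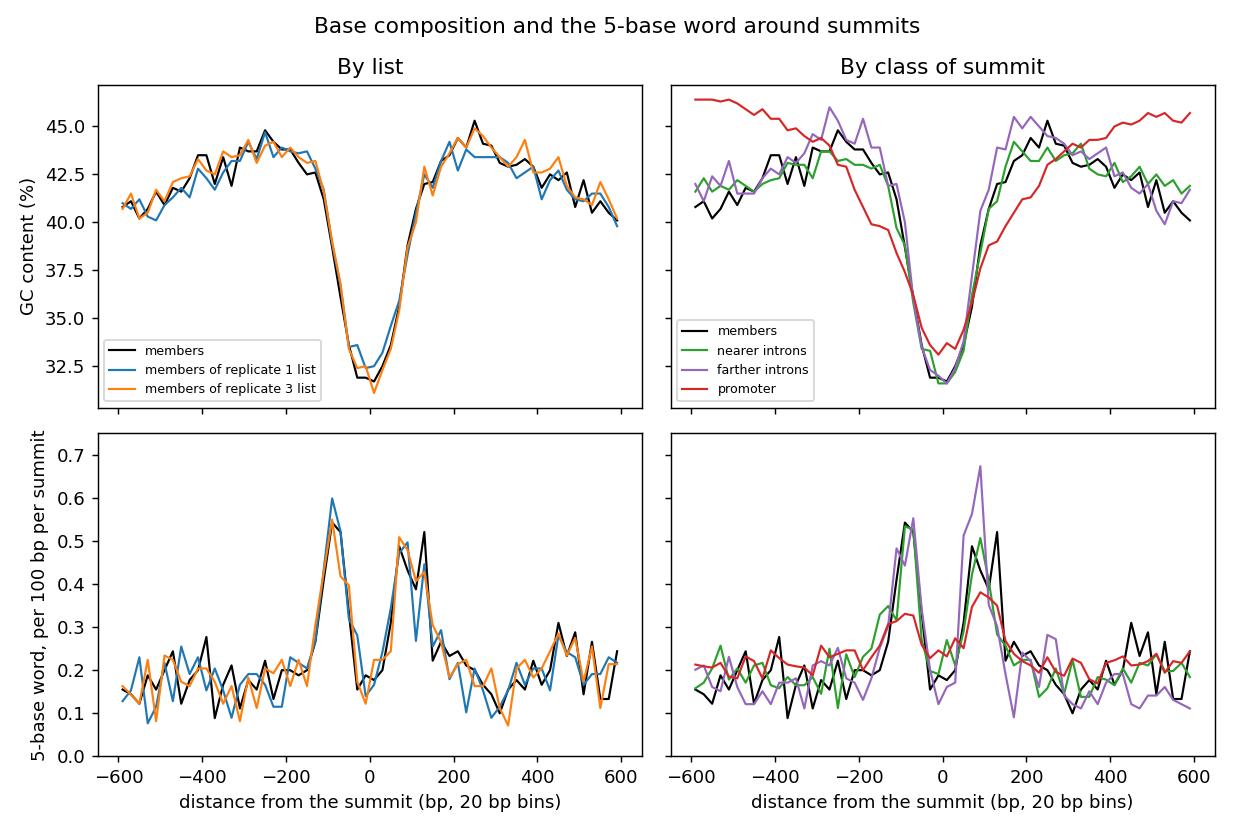
GC content (top) and copies of the 5-base word per 100 bp per summit (bottom) in 20 bp bins against distance from the summit, for the members and the same class in each replicate's list (left) and for the members and other classes of summit (right). GC content is lowest at the summit (31.7% for members) and the word peaks on both sides of it, at 0.466 per 100 bp over 60 to 119 bp against 0.183 far away. The word was picked on these same members, so its higher density near the summit follows in part from that choice.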

How the data were processed

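Peak lists of 2 biological replicates of 1 group were used as deposited: the IDR-thresholded list, the list called on both replicates and each replicate's list of 30000 peaks, on dm6. Per the deposited notes, peaks were derived from each alignment with a control. The peak caller is not given in the sources used here. The signal of each peak is the authors' deposited value and was used to rank peaks within a list. The authors also deposited a −log10 q value per peak, which was not used for ranking, since 266 of 451 members shared the highest value. Summits are the deposited interval start plus the deposited offset, and coordinates are 1-based.

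Genes and TSSs came from Ensembl release 115 (BDGP 6.54, transposable elements left out) and sequence from the RefSeq copy of the release 6 assembly. Eligible sequence is every intronic base in the same distance range. Windows spanned 100 bp on each side of the summit. Of 308 listed gene names 295 were matched. Densities have exact Poisson and shares Wilson intervals at 95%, and differences of shares Newcombe intervals. They cover counting over peaks. P-values of Fisher's exact tests were adjusted after Benjamini and Hochberg, and the threshold was 0.05. Class assignment, matching, motif counts and the Fisher test were tested on simulated data. Python 3.11.15, numpy 2.4.6, pandas 2.3.3, scipy 1.17.1 and matplotlib 3.10.9 were used.

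The members, gene lists and 24 motifs were chosen with earlier results of these data known. Named hosts are those of the 20 strongest members, the 6 genes with the most members with ties kept, and up to 3 hosts by signal of each list. Egfr, InR, tara, ph-p, Mi-2 and RhoGAP71E, genes that overlap a named host, the genes at the distance limits and GTCAATA were named outside that rule, after their values were seen. Alternatives were the stronger 2519 peaks, TSSs of coding genes only, other distance limits, the interval midpoint, other overlaps, windows and flanks, 1 peak per host gene, and leaving out each replicate, with the 5038 strongest peaks of the other in its place. Those for the word CACTG and for GC content were added after the data were seen.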

Additional observations from a re-analysis of the deposited data

How the results depend on the processing

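Among the strongest 2519 peaks there were 198 members (15.1 per Mb), of which 71.7% were recovered in both replicates, 71.2% were among the strongest peaks of both and 28.3% had a promoter peak at the host gene. The last exceeded the farther class by 6.69 points (adjusted p = 0.508 by an exact test), and the ratio for CACTG was 3.57. Fewer promoter peaks remain in that list by construction. With limits of 1500 and 6000 bp there were 711 members and with 2500 and 4500 bp 289. With the wider limits, members exceeded the farther class by 9.30 points among both replicates' strongest peaks (exact test, adjusted p = 0.0149) and by 6.57 points among the strongest 1259 (0.0159). Leaving out a replicate gave 392 to 491 members, 29.9 to 37.4 per Mb, a promoter peak at the host gene for 45.6% to 55.4%, and differences in that share of -3.38 to 3.20 points from the nearer class. The share among the strongest 1259 differed by -7.06 to -4.73 points from the nearer class (exact tests, adjusted p = 0.0217 to 0.112) and by 0.337 to 7.48 points from the farther class (0.932 to 0.00379). With coding TSSs only, the nearest TSS was in the host gene for 81.3%. Recovery was 99.1% at an overlap of 1 bp and 94.7% with summits within 100 bp. GAGAG was in 9.53% of windows of 50 bp on each side and in 44.6% of those of 200 bp, which differ in length. With the strongest peak of each host gene, 58.5% were among both replicates' strongest peaks, 24.6% among the strongest 1259, and the promoter peak difference from the farther class was 9.78 points (exact test, adjusted p = 0.124).

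Differences that changed sign passed no threshold before or after. The largest was the share with a promoter peak at the host gene against the nearer class, which went from -1.16 to 3.20 points in the peaks of replicate 1 alone. Recovery against the nearer class became 0.694 points both with the wider limits and at an overlap of 1 bp, and against the farther class -0.694 with summits within 100 bp. GAGAG against the nearer class became 0.463 with the wider and 0.461 with the narrower limits. The share among both replicates' strongest peaks against the nearer class became 0.0630 with interval midpoints and 2.28 with 1 peak per host gene. The cause of these changes was not tested. Over all results and settings, 125 values kept their direction and side of the threshold or stayed within their interval. Of the others, 17 shifted further and 8 differences changed sign. A further 4 passed the threshold where the main value did not, and 2 no longer passed it. Recovery has no value with a replicate left out. No paired analysis was possible because the samples form 1 group. Peaks without read counts do not show what depth limits.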
